A study of Mus musculus with 12 samples.

Results

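The light chain of an antibody is encoded at the kappa or the lambda locus, and 7 genes of these loci were followed here. They were the kappa constant gene Igkc, the lambda constant genes Iglc1, Iglc2 and Iglc3, and the lambda variable (V) genes Iglv1, Iglv2 and Iglv3. They were taken by gene symbol from the 50686 genes of the count tables. All 7 were found, and all 7 were among the 17754 genes that passed the filter on low counts.

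RNA-seq libraries came from splenic B cells of 12 mice, 1 library per mouse, sorted for the B cell surface marker B220 and a fluorescent reporter. YC mice (n = 3), labelled normal controls, had the genotype YFPstopF/+ Cg1Cre/+ and gave B220+YFP+ cells. BIC mice (n = 3; Blimp1F/F IKK2castopF/stopF Cg1Cre/+) and pBIC mice (n = 6; the same alleles with p53F/F) gave B220+GFP+ cells. Both models are labelled ABC-DLBCL, the activated B cell-like form of diffuse large B cell lymphoma. Every group carried Cg1Cre, a Cre recombinase driven from the IgG1 heavy-chain constant locus, which acts in B cells that transcribe that locus. The labels give YC no Blimp1, IKK2 or p53 allele. The reporter changed together with these alleles, so reporter and genotype cannot be told apart. The sources used here do not give ages. The names of the deposited tables add a letter to the pBIC libraries, h for pBIC 1 to 3 and l for pBIC 4 to 6, which the labels do not explain, and the 6 were kept as 1 group as labelled.

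During B cell development a V and a joining (J) segment are fused at the DNA level, and the transcript is spliced to a constant (C) gene of the same locus. A mature B cell normally makes 1 kind of light chain and passes the rearrangement on to its descendants. In mice most B cells use kappa. In the lambda locus Iglv1 joins mainly to the J segments in front of Iglc3 and Iglc1, while Iglv2 and Iglv3 join mainly to the one in front of Iglc2.

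On GRCm38, Igkc (ENSMUSG00000076609.2) is 1 exon at chr6:70726435-70726966 on the plus strand. The lambda genes lie on the minus strand of chromosome 16, in the order of transcription Iglv2 (ENSMUSG00000076940.3, chr16:19260401-19260859), Iglv3 (ENSMUSG00000076939.2, chr16:19241207-19241690), Iglc2 (ENSMUSG00000076937.3, chr16:19198396-19200351), Iglv1 (ENSMUSG00000076934.2, chr16:19085017-19085500), Iglc3 (ENSMUSG00000105547.1, chr16:19065230-19065681) and Iglc1 (ENSMUSG00000105906.1, chr16:19061618-19062071). Each V gene has 2 exons, and Iglc1 and Iglc3 have 1 exon each.

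The lambda genes are close relatives, and how far they differ sets how well reads of 100 bases tell them apart. The first 150 coding bases of the 3 lambda constant genes are shown 5′ to 3′ from the GENCODE M21 transcripts, read on the minus strand at chr16:19198704-19198853 for Iglc2, chr16:19065532-19065681 for Iglc3 and chr16:19061922-19062071 for Iglc1. Capitals mark bases of Iglc2 that differ from or have no partner in Iglc3, and bases of Iglc3 and Iglc1 that differ from Iglc2.
Iglc2: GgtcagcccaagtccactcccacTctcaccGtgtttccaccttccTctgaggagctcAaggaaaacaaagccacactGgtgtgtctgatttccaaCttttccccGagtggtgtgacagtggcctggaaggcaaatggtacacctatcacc
Iglc3: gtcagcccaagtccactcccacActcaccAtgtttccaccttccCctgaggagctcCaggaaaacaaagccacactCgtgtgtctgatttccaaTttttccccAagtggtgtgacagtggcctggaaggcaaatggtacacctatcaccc
Iglc1: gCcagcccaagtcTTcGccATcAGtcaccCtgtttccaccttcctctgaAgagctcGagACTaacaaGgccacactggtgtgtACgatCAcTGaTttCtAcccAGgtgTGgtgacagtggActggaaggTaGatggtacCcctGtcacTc
Over their aligned coding bases Iglc2 and Iglc3 were 96.5% identical, with 11 of 314 bases different and a longest identical run of 79 bases. Iglc1 was 73.2% identical to Iglc2 and 73.9% to Iglc3, and Igkc was 52.6 to 56.5% identical to the lambda constant genes. No stretch of 100 bases of an Igkc, Iglc1, Iglc2 or Iglc3 transcript was found in the transcript of another gene, so a read that lies whole in one of them had a single exact match among the transcripts.

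The last 150 coding bases of the 3 lambda V genes, which end near the joint with a J segment, are shown the same way from chr16:19085017-19085166 for Iglv1, chr16:19260401-19260550 for Iglv2 and chr16:19241207-19241356 for Iglv3, all on the minus strand. Capitals mark bases that differ from Iglv2 in Iglv1, from Iglv1 in Iglv2, and that differ from or have no partner in Iglv1 in Iglv3.
Iglv1: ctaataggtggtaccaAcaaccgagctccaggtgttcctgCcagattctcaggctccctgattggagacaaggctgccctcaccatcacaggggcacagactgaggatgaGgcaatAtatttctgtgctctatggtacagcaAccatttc
Iglv2: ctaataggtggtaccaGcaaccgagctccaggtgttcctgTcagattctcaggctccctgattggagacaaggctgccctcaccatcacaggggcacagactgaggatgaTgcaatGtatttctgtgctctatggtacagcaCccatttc
Iglv3: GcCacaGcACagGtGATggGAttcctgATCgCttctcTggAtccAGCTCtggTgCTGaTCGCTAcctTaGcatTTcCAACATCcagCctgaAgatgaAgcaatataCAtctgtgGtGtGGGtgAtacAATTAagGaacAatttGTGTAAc
Iglv1 and Iglv2 were 96.9% identical, with 11 of 351 coding bases different and a longest identical run of 104 bases. Iglv3 was 55.6% identical to Iglv1 and 55.0% to Iglv2. Of the 100-base stretches, 5 of 292 in Iglv1 and 5 of 267 in Iglv2 were shared between these 2 genes, and 0 of 282 in Iglv3 were shared. Reads that mapped to several places were not counted, and how many came from these stretches was not measured.

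Library totals ran from 33127283 to 47067627 counts, and the limit set by 3 counts was 0.0637 to 0.0906 CPM (counts scaled to a fixed library total). Immunoglobulin segments of all loci made up 2.17 to 2.21% of counts in YC, 1.09 to 1.80% in BIC and 0.644 to 1.62% in pBIC. The 7 B cell markers (Ms4a1, Cd79a, Cd79b, Cd22, Pax5, Ptprc and Blk) summed to 7596 to 9255 CPM in YC, 8636 to 8930 CPM in BIC and 2395 to 6508 CPM in pBIC, and none was at 0 in a whole group. No library was a copy of another. In pBIC 4 the recombination gene Rag1 stood at 364 CPM and Rag2 at 10.9 CPM, against at most 1.27 and 0.0545 CPM in the other 11 libraries.

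Igkc was the most abundant of the 7 genes in every library and was lower in pBIC than in YC. It stood at 3709, 3540 and 3806 CPM in YC 1 to 3, at 4052, 3635 and 1410 CPM in BIC 1 to 3, and at 1973, 1796, 1551, 1074, 2473 and 1202 CPM in pBIC 1 to 6. Every pBIC library lay below every YC library. The BIC libraries spread on both sides of YC, and BIC 3, at 1410 CPM, lay far below the other two. Igkc fell in pBIC against YC, with a log2 fold change of -1.13 ± 0.31 (SE; edgeR adjusted p = 0.0226). For BIC against YC it was -0.28 ± 0.37 and for pBIC against BIC -0.85 ± 0.31, neither past the threshold of 0.05 (edgeR adjusted p = 0.682 and 0.0758). In bulk RNA, fewer cells with kappa transcripts and less kappa RNA per cell cannot be told apart.

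Iglc2, the constant gene nearest to Iglv2 and Iglv3, was highest in BIC. Its level was 192, 187 and 194 CPM in YC 1 to 3, 448, 464 and 260 CPM in BIC 1 to 3, and 284, 129, 144, 46.8, 233 and 142 CPM in pBIC 1 to 6. All 3 BIC libraries exceeded all YC libraries, while pBIC 1 and pBIC 5 were above YC and the other 4 below it. Iglc2 fell in pBIC against BIC (log2 fold change -1.26 ± 0.40, edgeR adjusted p = 0.0459), although pBIC 1 lay above BIC 3. Against YC the log2 fold changes were 1.03 ± 0.48 for BIC and -0.23 ± 0.41 for pBIC (edgeR adjusted p = 0.205 and 0.722).

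Iglc3, the near copy of Iglc2, had a similar order of groups. It stood at 62.6, 100.5 and 101 CPM in YC, at 195, 162 and 120.2 CPM in BIC, and at 92.9, 119, 35.6, 87.4, 70.7 and 13.2 CPM in pBIC. The BIC libraries exceeded every library of the other groups, by little at BIC 3 and pBIC 2. The log2 fold change was 0.85 ± 0.59 in BIC against YC (edgeR adjusted p = 0.391), -0.34 ± 0.50 in pBIC against YC (edgeR adjusted p = 0.662) and -1.19 ± 0.49 in pBIC against BIC (edgeR adjusted p = 0.106). None of these passed the threshold.

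Iglc1, the constant gene at the end of the locus, had the widest spread of the 4 constant genes within both lymphoma groups. It stood at 197, 147 and 160 CPM in YC, at 266, 163 and 47.2 CPM in BIC, and at 138, 181, 50.4, 159, 98.1 and 17.9 CPM in pBIC. The ranges of all 3 groups overlapped. The log2 fold changes were -0.09 ± 0.72 in BIC against YC, -0.65 ± 0.61 in pBIC against YC and -0.56 ± 0.61 in pBIC against BIC (edgeR adjusted p = 0.957, 0.473 and 0.552).

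Iglv1 was the leading lambda V gene of the controls and was low in the lymphoma libraries. It stood at 163, 101 and 83.1 CPM in YC 1 to 3, at 20.1, 8.28 and 12.6 CPM in BIC 1 to 3, and at 1.79, 2.64, 0.856, 34.8, 0.787 and 2.58 CPM in pBIC 1 to 6. All 9 lymphoma libraries lay below all 3 YC libraries, and pBIC 4 was the highest of the 9. In pBIC, Iglv1 fell against YC by a log2 fold change of -4.00 ± 1.05 (edgeR adjusted p = 0.0177), and by -6.05 without pBIC 4 (edgeR adjusted p = 8.04e-05). In BIC against YC it was -3.09 ± 1.32 (edgeR adjusted p = 0.164), which became a call when pBIC 4 was left out of the shared estimate of spread (edgeR adjusted p = 0.00685). In pBIC against BIC it was -0.91 ± 1.03 (edgeR adjusted p = 0.566), and -2.98 without pBIC 4 (edgeR adjusted p = 0.00228).

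Iglv2, nearly identical to Iglv1 and least abundant of the 3 V genes, was close to the detection limit in several pBIC libraries. It stood at 17.6, 16.8 and 11.9 CPM in YC, at 16.5, 2.59 and 12.6 CPM in BIC, and at 0.204, 0.519, 3.12, 2.75, 0.231 and 0.0946 CPM in pBIC, where 8, 24, 113, 107, 10 and 4 counts lay behind the values. Every pBIC library was below every YC library, and pBIC 3 and pBIC 4 were above BIC 2. Against YC, Iglv2 fell in pBIC by a log2 fold change of -3.74 ± 0.96 (edgeR adjusted p = 0.0160), and against BIC by -3.19 ± 0.95 (edgeR adjusted p = 0.0350). It was -0.55 ± 1.12 in BIC against YC (edgeR adjusted p = 0.798).

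Iglv3, the most divergent V gene, overlapped its control levels in BIC and lay below them in pBIC. It stood at 45.2, 59.2 and 54.3 CPM in YC, at 117, 55.8 and 49.5 CPM in BIC, and at 24.3, 8.82, 7.23, 22.2, 0.417 and 6.81 CPM in pBIC. Every pBIC library was below every library of the other groups. Iglv3 fell in pBIC against BIC (log2 fold change -2.67 ± 0.74, edgeR adjusted p = 0.0267). It was -2.19 ± 0.74 in pBIC against YC (edgeR adjusted p = 0.0529), just outside the threshold, and 0.49 ± 0.89 in BIC against YC (edgeR adjusted p = 0.773).

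**Figure D1:**
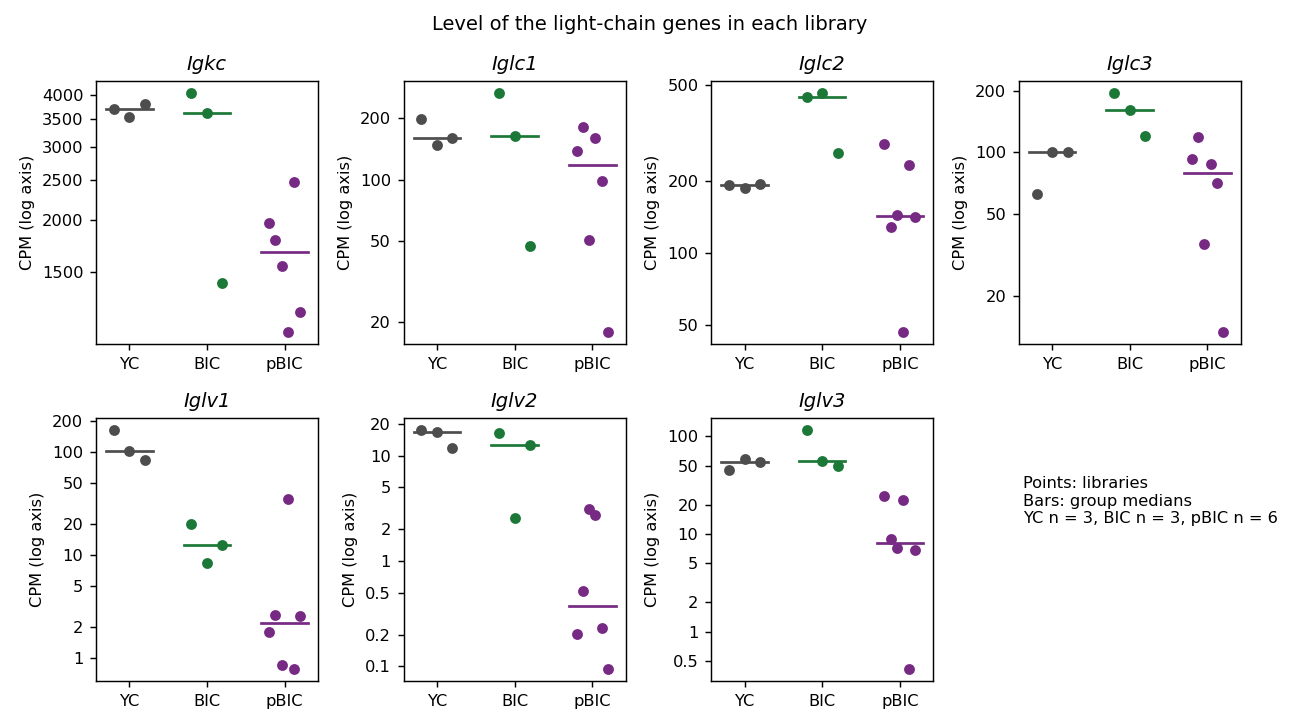
Level of each light-chain gene in CPM (log axis) in the 3 YC, 3 BIC and 6 pBIC libraries. Points are libraries and bars are group medians. Iglv1 is at 83.1 CPM or more in YC and at 34.8 CPM or less in every BIC and pBIC library.

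Counted over the 7 genes, 0 passed the edgeR test in BIC against YC, where 8.88% of all tested genes did (3.9% rose and 4.97% fell), and 1 (Iglv1) had an unadjusted p under 0.05 (0.0372). In BIC, 2 of 7 (Iglc2 and Iglc3) lay wholly above YC, against 21.9% of all tested genes, and 1 (Iglv1) wholly below, against 23.2%. In pBIC against YC, 3 of 7 fell (Igkc, Iglv1 and Iglv2) and 0 rose, where 22% of tested genes passed (10.2% fell and 11.8% rose). A further gene, Iglv3, joined these 3 in lying wholly below YC, which 13.2% of tested genes did. In pBIC against BIC, 3 of 7 fell (Iglc2, Iglv2 and Iglv3) and 0 rose, where 19.7% of tested genes passed (8.78% fell and 10.9% rose), and 2 (Iglc3 and Iglv3) lay wholly below, against 9.9%. The median log2 fold change over all tested genes was 0.01, 0.10 and 0.09 in these comparisons. Each pair of comparisons shares 1 group of libraries, so their results are not independent.

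**Figure D2:**
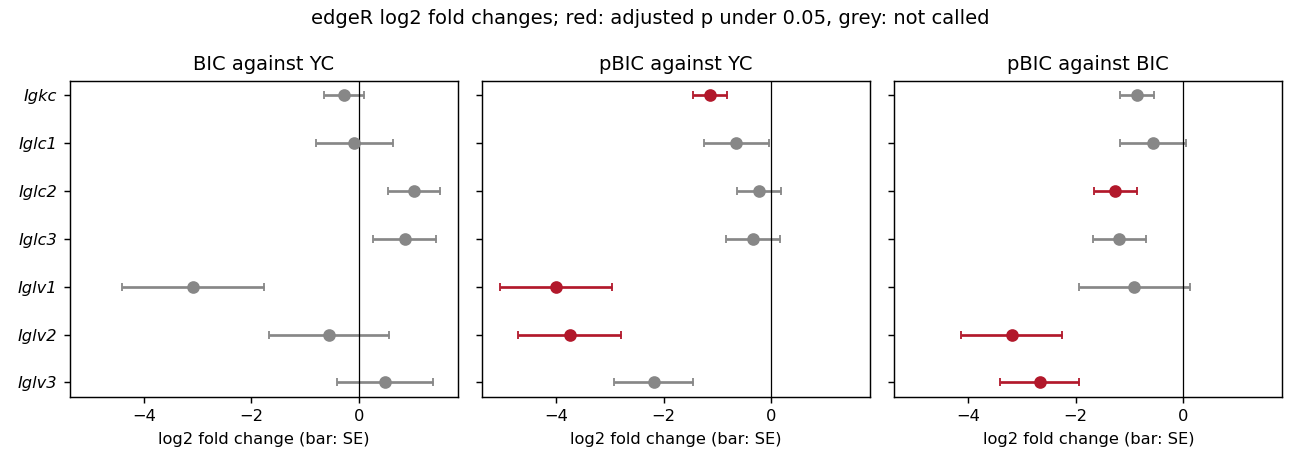
log2 fold change of the 7 genes in the 3 comparisons (x axis; error bars are SE). Red points passed an edgeR adjusted p of 0.05 and grey points did not, and the 6 red points are all below 0.

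Several of these calls depended on single libraries. The call of Igkc in pBIC against YC ended without any 1 of the 3 YC libraries (largest edgeR adjusted p 0.0798), that of Iglv1 ended without YC 1 and with no filter on low counts (up to 0.0700), and that of Iglv2 without YC 1 or YC 2 (up to 0.0530). In pBIC against BIC the call of Iglc2 held in 8 of 18 alternatives (edgeR adjusted p 0.0171 to 0.153), ending without YC 1, 2 or 3, BIC 1 or 2, or pBIC 2, 3 or 6. That of Iglv2 also held in 8 of 18 (0.00354 to 0.137), ending without YC 1, 2 or 3, BIC 1 or 3, or pBIC 2 or 5. That of Iglv3 held in 13 of 18 (0.00230 to 0.128), ending without BIC 1, BIC 2 or pBIC 3. Iglv3 in pBIC against YC was called in 6 of 18 alternatives, among them those without pBIC 1, pBIC 4 or pBIC 5 (edgeR adjusted p down to 0.0140). Without BIC 3 or pBIC 5, Igkc was called lower in pBIC than in BIC (down to 0.0175 over its alternatives), and without pBIC 6 so was Iglc3 (0.0477). A fit on the BIC and YC libraries alone called Iglc2 (edgeR adjusted p = 0.0133), Iglc3 (0.0340) and Iglv1 (0.00323). That fit called 4602 genes in all, against 1576 in the main fit. In a fit on the pBIC and BIC libraries alone the calls of Iglc2, Iglv2 and Iglv3 all ended.

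Levels of different genes were compared per kilobase of counted exon. In YC the order was Igkc at 6927 ± 253 CPM per kb, Iglc1 at 370.5 ± 56.9, Iglc2 at 312 ± 5.44, Iglv1 at 296 ± 107, Iglc3 at 195 ± 48.7, Iglv3 at 139 ± 18.6 and Iglv2 at 42.2 ± 8.54 (mean ± SD, n = 3). Igkc stood far above the rest, the range of Iglv1 overlapped those of Iglc1, Iglc2 and Iglc3, which did not overlap each other. The ranges of Iglc3 and Iglv3 overlapped, and Iglv2 lay below all others. The counted exons of Iglc2 cover 612 bases, and over its constant exon of 458 bases alone its YC level was 417 ± 7.27 CPM per kb, so the order of Iglc1 and Iglc2 depends on the length used. In BIC the order was Igkc (5700 ± 2671), Iglc2 (638 ± 185), Iglc3 (352 ± 83.04), Iglc1 (349 ± 241), Iglv3 (195 ± 98.0), Iglv1 (34.9 ± 15.3) and Iglv2 (28.8 ± 19.6 CPM per kb). Iglv1, which stood among the constant genes in the YC order, had a range in BIC that overlapped that of Iglv2 and lay below that of Iglv3, while all neighbours from Iglc2 to Iglv3 overlapped. In pBIC (mean ± SD, n = 6) Igkc stood at 3155 ± 973, Iglc2 at 266 ± 137, Iglc1 at 237 ± 141, Iglc3 at 154 ± 86.3, Iglv3 at 30.5 ± 24.9, Iglv1 at 18.5 ± 34.6 and Iglv2 at 3.15 ± 3.81 CPM per kb. The Iglv1 mean rests on pBIC 4 (88.96 CPM per kb), since the other 5 libraries were at 2.01 to 6.75. The ranges of all neighbours in that order below Igkc overlapped.

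Lambda held a larger share of light-chain constant counts in every lymphoma library than in any control. This share describes constant counts only and does not measure the use of lambda V genes. Lambda V counts per 100 lambda constant counts were lower in every lymphoma library (0.357 to 20.4) than in YC (32.8 to 49.98), as given below. The summed lambda constant genes made up 10.9, 10.95 and 10.7% of light-chain constant counts in YC 1 to 3, 18.3, 17.8 and 23.3% in BIC 1 to 3, and 20.7, 19.3, 12.9, 21.5, 14.0 and 12.6% in pBIC 1 to 6. The widest 95% Wilson interval was 21.1 to 21.8%, in pBIC 4. In pBIC, 3 libraries (1, 2 and 4) were at 19.3 to 21.5% and the other 3 at 12.6 to 14.0%, a division that does not follow the letters of their table names, while no BIC library was below 17.8%. As a ratio, Igkc exceeded lambda by 8.21, 8.13 and 8.37 to 1 in YC, 4.46, 4.61 and 3.30 to 1 in BIC, and 3.84, 4.19, 6.74, 3.66, 6.15 and 6.96 to 1 in pBIC.

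On the log2 scale the lambda to kappa ratio averaged -3.04 ± 0.02 (SD, n = 3) in YC, -2.03 ± 0.27 (SD, n = 3) in BIC and -2.34 ± 0.43 (SD, n = 6) in pBIC. The difference was 1.01 in BIC against YC, with an exact two-sided permutation p of 0.100, the smallest that 3 against 3 libraries allow (0.214 adjusted over 15 tests). It was 0.70 in pBIC against YC (exact permutation p = 0.0238, again the smallest possible, adjusted p = 0.179) and -0.31 in pBIC against BIC (exact permutation p = 0.310, adjusted p = 0.522). The size of these differences depended on which lambda genes were summed. With Iglc1 alone over Igkc the difference was 0.027 in BIC against YC and 0.20 in pBIC against YC (exact permutation p = 1 and 0.833), and with all C, J and V genes of both loci it was 0.70 and 0.33 (exact permutation p = 0.100 and 0.333). None of the 15 tests on balance and composition passed 0.05 after adjustment. The lambda constant sum behind these ratios was 908, 789 and 428 CPM in BIC 1 to 3 and 173 to 514 CPM in pBIC, against 435 to 455 CPM in YC. BIC 1 and BIC 2 were thus above YC in the lambda sum and close to YC in Igkc, whereas BIC 3 was close to YC in the lambda sum and below it in Igkc.

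**Figure D3:**
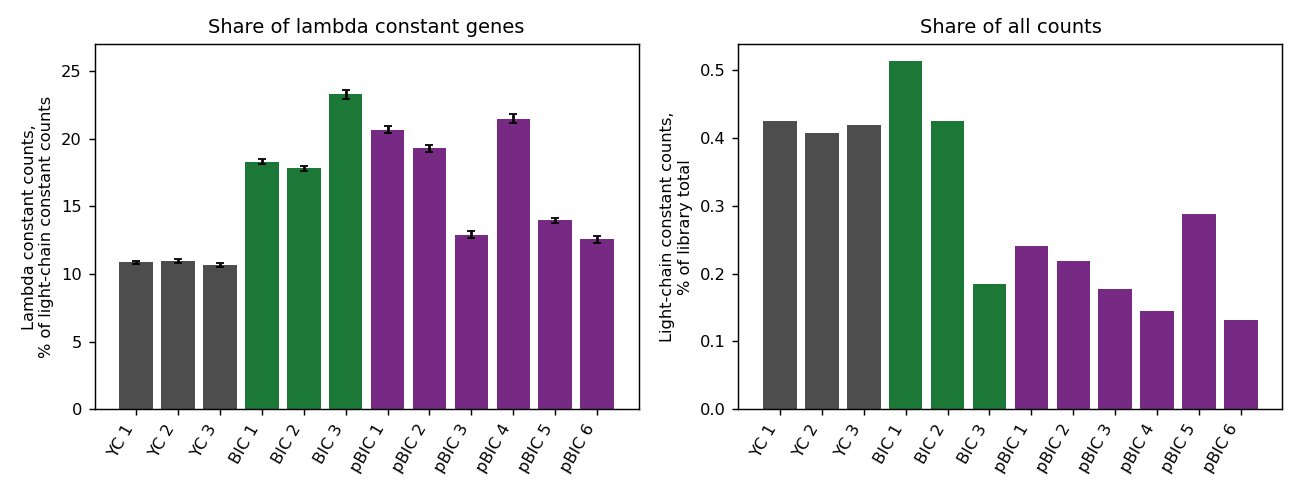
Left, lambda constant counts as a percent of light-chain constant counts in each library, with 95% Wilson intervals, and right, light-chain constant counts as a percent of the library total. Lambda shares are 10.7 to 10.95% in YC and 12.6 to 23.3% in the lymphoma libraries.

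Together the 4 constant genes took 0.424, 0.407 and 0.418% of all counts in YC, 0.513, 0.426 and 0.185% in BIC, and 0.241, 0.219, 0.177, 0.145, 0.288 and 0.132% in pBIC. All pBIC libraries lay below YC, by 0.216 percentage points on average (exact permutation p = 0.0238, adjusted p = 0.179). The BIC mean of 0.374 ± 0.170% (SD, n = 3) was within the spread of its own libraries of the YC mean of 0.417 ± 0.00894% (SD, n = 3; exact permutation p = 1). Without BIC 3 that difference turned from -0.0423 to 0.0526 percentage points.

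The balance to heavy-chain RNA showed no such separation. The log2 ratio of light-chain to heavy-chain constant counts was -1.53, -1.65 and -1.56 in YC, -0.62, -0.998 and -1.90 in BIC, and -1.38, -1.57, -0.76, -1.49, -1.71 and -1.82 in pBIC. The groups differed by 0.41 (BIC against YC, exact permutation p = 0.400), 0.13 (pBIC against YC, p = 0.738) and -0.28 (pBIC against BIC, p = 0.429). These differences ran from 0.13 to 0.77, from -0.012 to 0.20 and from -0.64 to -0.0075 when single libraries were left out, with the outer values of the first and the last without BIC 1 and BIC 3 and those of the second without pBIC 3 and pBIC 6. The 3 highest ratios were those of BIC 1, BIC 2 and pBIC 3. The most counted heavy-chain constant gene was Ighm, the IgM gene, in YC 1 to 3, BIC 3 and pBIC 1, 2, 5 and 6, whereas it was Ighg3 in BIC 1 and 2, Ighg2b in pBIC 3 and Ighg1 in pBIC 4.

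The share of each gene in the lambda constant counts also varied. Iglc1 held 43.6, 33.9 and 35.2% of lambda constant counts in YC, 29.2, 20.6 and 11.04% in BIC, and 26.8, 42.3, 21.9, 54.3, 24.4 and 10.4% in pBIC. Iglc2 held 42.5, 43.1 and 42.6% in YC, 49.3, 58.9 and 60.9% in BIC, and 55.1, 30.0, 62.6, 15.9, 58.0 and 82.0% in pBIC. YC libraries were alike in the share of Iglc2, while YC 1 had a larger share of Iglc1 than YC 2 and YC 3. BIC libraries all leaned to Iglc2, and pBIC libraries went both ways, with pBIC 4 the lowest and pBIC 6 the highest in Iglc2. The share of Iglc1 differed by -17.2 percentage points in BIC against YC (exact permutation p = 0.100, adjusted p = 0.214), by -7.54 in pBIC against YC (p = 0.452) and by 9.71 in pBIC against BIC (p = 0.405). Without pBIC 4 the last 2 values were -12.4 and 4.85. Without pBIC 6 or YC 1 the value against YC was -3.60 or -4.50, and without BIC 3 that against BIC was 5.08.

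Among the lambda V genes the share of Iglv1 was 72.2, 57.2 and 55.7% in YC, 13.1, 12.4 and 16.8% in BIC, and 6.80, 22.0, 7.64, 58.2, 54.8 and 27.2% in pBIC. Iglv3 made up 20.02, 33.4 and 36.4% in YC, 76.2, 83.7 and 66.4% in BIC, and 92.4, 73.6, 64.5, 37.2, 29.0 and 71.8% in pBIC. Thus Iglv1 led in all YC libraries and in pBIC 4 and 5, and Iglv3 led in all BIC libraries and in the other 4 pBIC libraries. The value of pBIC 5 rests on 34, 10 and 18 counts of Iglv1, Iglv2 and Iglv3. The share of Iglv1 differed by -47.6 percentage points in BIC against YC (exact permutation p = 0.100, the smallest possible, adjusted p = 0.214), by -32.2 in pBIC against YC (p = 0.0952, adjusted p = 0.214) and by 15.3 in pBIC against BIC (p = 0.357, adjusted p = 0.522). Without pBIC 4 the last 2 values were -38.0 and 9.59.

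**Figure D4:**
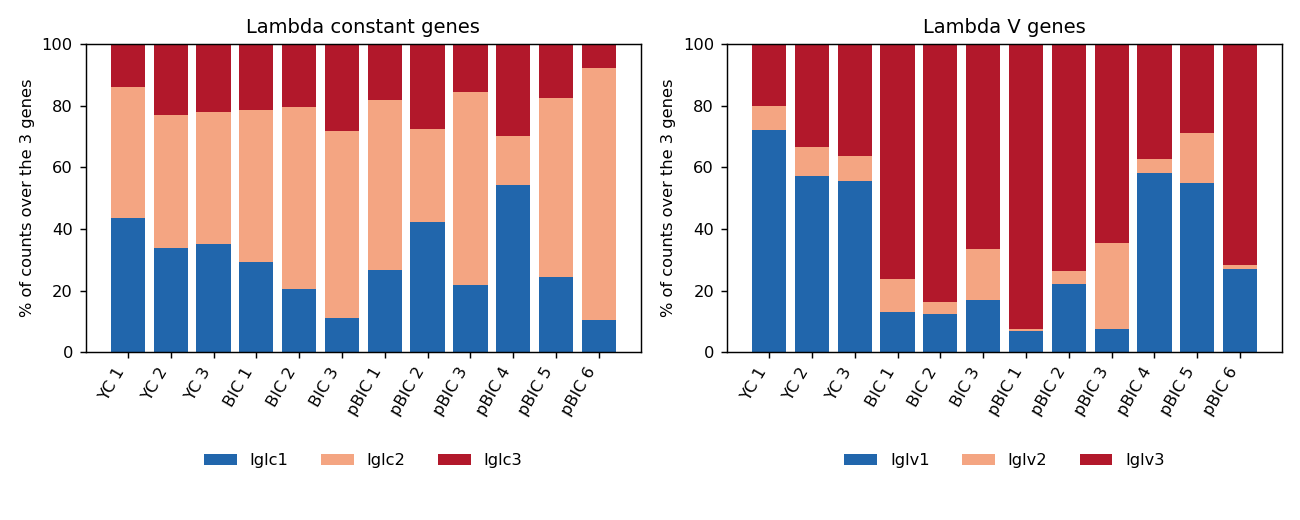
Share of each gene in the counts over the 3 lambda constant genes (left) and over the 3 lambda V genes (right), in percent, for each library. The share of Iglv1 is 55.7 to 72.2% in YC and 12.4 to 16.8% in BIC, and pBIC libraries range from 6.80 to 58.2%.

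A lambda transcript with a rearranged V gene yields reads from both parts, so V counts were also set against C counts. These ratios were chosen after the values had been seen and are given without a test. Lambda V counts per 100 lambda constant counts were 49.98, 40.8 and 32.8 in YC, 16.9, 8.45 and 17.5 in BIC, and 5.11, 2.79, 4.87, 20.4, 0.357 and 5.49 in pBIC. All lymphoma libraries were below YC, pBIC 5 was lowest and pBIC 4 was the only pBIC library above the BIC range. In pBIC 5, 62 lambda V counts stood beside 4238 Iglc1, 10074 Iglc2 and 3056 Iglc3 counts. The same ratio for kappa, over all Igkv genes, was 81.6, 81.3 and 81.7 in YC, 92.4, 74.0 and 83.1 in BIC, and 97.4, 79.3, 79.1, 89.8, 73.1 and 54.9 in pBIC, with both lymphoma groups on either side of YC.

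**Figure D5:**
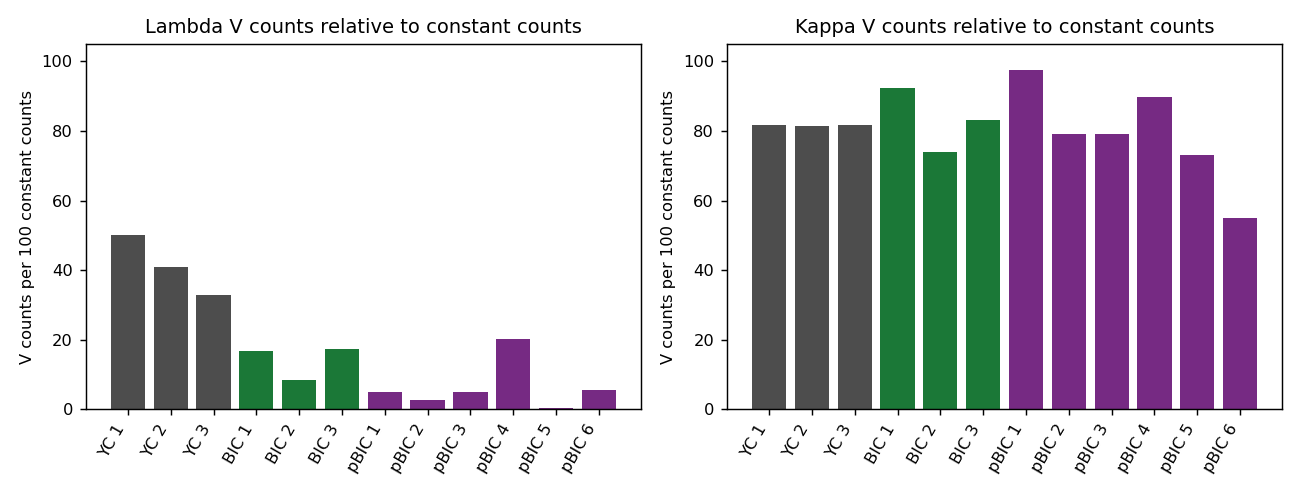
V counts per 100 constant counts in each library for lambda (left) and kappa (right), on the same axis. Lambda values are 32.8 to 49.98 in YC and 0.357 to 20.4 in the lymphoma libraries, and kappa values are 54.9 to 97.4 throughout.

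Split by the usual joining partners, Iglv1 per 100 counts of Iglc1 and Iglc3 was 62.8, 40.9 and 31.8 in YC, 4.36, 2.55 and 7.50 in BIC, and 0.773, 0.879, 0.995, 14.1, 0.466 and 8.28 in pBIC. Iglv2 and Iglv3 together per 100 counts of Iglc2 were 32.7, 40.6 and 34.1 in YC, 29.8, 12.6 and 23.9 in BIC, and 8.64, 7.25, 7.19, 53.4, 0.278 and 4.88 in pBIC. The first ratio was below YC in all 9 lymphoma libraries. The second was below YC in 8 of them, and in pBIC 4 it was above all YC libraries, where Iglc2 had its lowest level.

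The kappa V genes behind Igkc were concentrated in the lymphoma libraries. The most counted Igkv gene held 7.74% (Igkv5-39), 6.35% (Igkv4-68) and 11.4% (Igkv3-4) of Igkv counts in YC 1 to 3. In BIC 1 to 3 it held 66.0% (Igkv1-135), 61.5% (Igkv12-46) and 33.8% (Igkv4-68). In pBIC 1 to 6 it held 62.1% (Igkv12-44), 96.1% (Igkv19-93), 92.5% (Igkv12-44), 71.1% (Igkv5-48), 99.4% (Igkv19-93) and 86.2% (Igkv6-23). Thus 1 kappa V gene made up nearly all Igkv counts in pBIC 2, 3 and 5, and these libraries held 12.9 to 19.3% lambda among their light-chain constant counts. Their lambda V counts were 0.357 to 4.87 per 100 lambda constant counts.

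The most counted kappa joining segment, one of those between the V genes and Igkc, also varied. Reads that overlap several genes were left out, so the Igkj counts miss reads that also touch a V gene or Igkc. They came to 2.15 to 5.57 per 100 Igkc counts over all libraries, and which J segment the light chains used was not measured. Igkj5, the segment nearest to Igkc, was the most counted in YC 1 to 3 (27.3, 31.9 and 35.3% of Igkj counts) and in BIC 1 and 2 (63.5 and 64.5%). Igkj2 led in BIC 3 (32.8%) and pBIC 1, 3 and 4 (39.7, 45.2 and 42.6%). Igkj1 led in pBIC 2, 5 and 6 (53.3, 53.4 and 42.7%). Igkj5 fell in pBIC against BIC (log2 fold change -1.89 ± 0.43, edgeR adjusted p = 0.0114). Its level was 92.6, 75.3 and 14.8 CPM in BIC 1 to 3 and 13.3 to 26.4 CPM in pBIC, so BIC 3 lay within the pBIC range.

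Variation between mice was low for Igkc and Iglc2 in YC and high for the V genes in pBIC. The SD of log2 CPM in YC was 0.05 for Igkc and 0.03 for Iglc2, against a median of 0.27 over all tested genes, and only 5.95% and 1.81% of tested genes varied less. Iglc1 (0.22) and Iglv3 (0.20) were also below that median, and Iglc3 (0.40), Iglv1 (0.50) and Iglv2 (0.31) were above it. In pBIC the SD was 1.96 for Iglv1, 1.88 for Iglv2 and 2.07 for Iglv3, against a median of 0.59, and 94.7, 94.0 and 95.6% of tested genes varied less. The lambda constant genes lay between, with SDs of 0.90 to 1.28 in pBIC, while Igkc varied less than the median gene there (0.45). In BIC, Iglc1 and Iglv2 varied most (1.28 and 1.43, against a median of 0.34).

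The neighbourhood of the light-chain genes was described by 37 genes: surrogate light chain genes, recombination genes, factors of the light-chain enhancers and promoters, receptor partners, genes of immunoglobulin mRNA processing and assembly, and joining segments. Of these, 31 passed the filter on low counts. Of all tested genes, 3.9% rose and 4.97% fell in BIC against YC. Among the 31, 0 rose and 2 fell, with a median log2 fold change of -0.15. They were Irf8 (-1.31 ± 0.32, edgeR adjusted p = 0.0265), a transcription factor that binds light-chain enhancers, and Vpreb3 (-4.66 ± 1.22, edgeR adjusted p = 0.0353), a small immunoglobulin-like protein of the B cell lineage. In pBIC against YC, 0 rose and 9 fell, with a median of -0.55, where 11.8% of all tested genes rose and 10.2% fell. The lowest p-values belonged to Irf8 (-1.83 ± 0.26, edgeR adjusted p = 0.000873) and Spi1 (-0.81 ± 0.13, edgeR adjusted p = 0.00166), which encodes PU.1, a partner of the IRF factors on those enhancers. The other 7 were Pax5, Ikzf3, Pou2af1, Ebf1, Foxo1, Xbp1 and Igkj4.

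In pBIC against BIC, 1 of the 31 rose and 5 fell, with a median of -0.57, where 10.9% of all tested genes rose and 8.78% fell. Vpreb3 rose (3.47 ± 1.10, edgeR adjusted p = 0.0447), from 1.53 to 2.45 CPM in BIC to between 1.30 and 64.1 CPM in pBIC, with its highest value in pBIC 4. Pou2f2, which encodes the octamer-binding factor OCT2 that acts on immunoglobulin promoters, fell (-1.07 ± 0.21, edgeR adjusted p = 0.00518), and so did Spi1, Spib, Cd79b and Igkj5. Rag1, high in pBIC 4 alone, was not called, with a log2 fold change of 6.70 ± 3.37 in pBIC against YC (edgeR adjusted p = 0.173) and 8.16 ± 3.69 in pBIC against BIC (edgeR adjusted p = 0.138). The same library had the highest Iglv1 level and the highest lambda V to C ratio of the pBIC group, and whether these go together was not tested.

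Markers of B cells and of plasma cells, which secrete antibody and hold much light-chain RNA, were compared between the groups as well. Of 7 B cell markers, 0 passed the test in BIC against YC, 3 fell and 0 rose in pBIC against YC (Cd22, Pax5 and Ptprc), and 5 fell and 0 rose in pBIC against BIC (Ms4a1, Cd79b, Cd22, Ptprc and Blk). Of all tested genes, 8.88% passed in BIC against YC. In pBIC against YC 10.2% of them fell, and in pBIC against BIC 8.78% fell and 10.9% rose. The 10 plasma cell markers summed to 1814 to 2158 CPM in YC, 653 to 1540 CPM in BIC and 553 to 1508 CPM in pBIC, and none was at 0 in a whole group. Of these, 0 passed in BIC against YC, 3 fell and 0 rose in pBIC against YC (Sdc1, Jchain and Xbp1), and 1 rose and 0 fell in pBIC against BIC (Fkbp11). Jchain, which encodes the chain that joins IgM and IgA units, stood at 590 to 666 CPM in YC, at 53.2, 5.99 and 8.53 CPM in BIC, and at 0.663 to 64.5 CPM in pBIC, where it fell against YC (log2 fold change -5.63 ± 1.37, edgeR adjusted p = 0.0125). The plasma cell markers did not all go the way of Jchain. In BIC against YC the log2 fold changes of Prdm1, Mzb1 and Creld2 were above 0 (0.47, 1.05 and 1.32), and those of the others on the list were below 0. The part of these markers in the light-chain results was not tested.

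Markers of other spleen cells were also summed. The 6 T cell markers summed to 57.0 to 87.1 CPM in YC, 109 to 144 CPM in BIC and 14.1 to 45.3 CPM in pBIC. The 6 neutrophil markers summed to 1.60 to 197 CPM, 44.8 to 1112 CPM and 3.71 to 64.7 CPM in these groups. For the 6 erythroid markers the sums were 19.3 to 454, 91.2 to 300.02 and 21.2 to 396 CPM, and for the 6 macrophage markers 46.3 to 84.4, 168 to 255 and 14.2 to 318 CPM. No marker of these lists was at 0 in a whole group. Of all tested genes, 8.88% were called in BIC against YC, 22% in pBIC against YC and 19.7% in pBIC against BIC. Among these markers, 1 T cell marker (Cd3g) and 1 macrophage marker (Cd68) rose and 1 macrophage marker (Adgre1) fell in BIC against YC. In pBIC against YC, 1 T cell and 1 macrophage marker fell, and in pBIC against BIC 3 T cell, 5 neutrophil and 1 macrophage markers fell. Their part in the light-chain results was not tested.

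The genes whose pattern over the 12 libraries was most like that of Igkc, by Pearson's r of log2 CPM among 9480 genes of 5 CPM or more on average, were Ctsh (r = 0.95, Spearman's rho = 0.92), which encodes a lysosomal protease, Rasgrp3 (r = 0.92, rho = 0.80) and Txndc11 (r = 0.92, rho = 0.81). For the sum of the lambda constant genes they were Cyb561d2 (r = 0.94, rho = 0.77), Arl10 (r = 0.94, rho = 0.83) and Acaa1a (r = 0.93, rho = 0.81). The libraries share group differences and depth, and these values are descriptions without a test. For the genes like Igkc, r was 0.08, -0.36 and 0.61 within YC, 0.996, 0.94 and 0.99 within BIC and 0.83, 0.84 and 0.67 within pBIC. For those like the lambda sum it was 0.91, -0.56 and -0.85 within YC, 0.89, 0.996 and 0.89 within BIC and 0.95, 0.88 and 0.98 within pBIC. Within YC, over 3 libraries, 3 of these 6 values were thus below 0.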

How the data were processed

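Poly(A) RNA of sorted splenic B cells was sequenced as paired reads of 100 bases on a HiSeq4000, per the labels' protocols. The authors deposited raw counts per gene, made with featureCounts 1.5.0 over GENCODE M13 exons, per the file headers. Mates were counted as separate reads, strand was not used, and reads that map to several places or overlap several genes were left out. The submitters' processing notes name FastQC, STAR, edgeR and limma on mm10 and GRCm38. The STAR version is not given in the sources used here. The design text counts mice, so replicates are separate animals.

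Symbols came from GENCODE M21 (50462 genes matched, with at most 0.0174% of counts unmatched), and sequences from its transcripts. The 7 genes and all gene lists were chosen with earlier results of these data known. CPM are counts over the TMM-scaled library total, times 1e6. All 12 libraries were fitted with edgeR 4.0.16 in R 4.3.3 (default filter by group, 1 coefficient per group, robust quasi-likelihood F test), with Benjamini-Hochberg adjustment over all 17754 genes kept and calls at an adjusted p under 0.05. The SE of a log2 fold change was taken from its size and its F statistic (size over root F), so it restates the test. Ratios and shares were compared with exact two-sided permutation tests over libraries, adjusted over 15 tests, with 1 count added to both sides of a log2 ratio. Wilson intervals of 95% cover counting error only and are too narrow, since mates are not independent. The named genes were the 7 members, up to 2 neighbourhood genes per direction in order of p, the leading Igkv gene of each library, and the 3 genes most like Igkc and the lambda constant sum. Other genes named only to complete a count were named after their values were seen, as were Igkj leaders, heavy-chain genes and the single cell type markers given with values. The fit and the permutation test were tested on simulated data. Alternatives covered scaling with DESeq2 size factors or without immunoglobulin segments, the DESeq2 1.42.0 Wald test, the filter, the samples fitted, a replicate block, gene length, the genes summed, and leaving out each library. Another gene of the B cell marker list is not reported here.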

Additional observations from a re-analysis of the deposited data

Results flagged for a closer look

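Among 14 sets of values in the pBIC group, 2 had 1 library far from the other 5. The cut-off used singles out about 1 in 20 sets of independent, normally distributed values. The sets here share genes and the CPM were not put on a log scale, so that rate may not hold. Both flagged sets concern pBIC 4. Its Iglv1 level was 34.8 CPM, against 0.787 to 2.64 CPM in the other pBIC libraries, and its lambda V counts were 20.4 per 100 lambda constant counts, against 0.357 to 5.49. Both values share the Iglv1 counts of that library.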

How the results depend on the processing

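The number of genes called in BIC against YC was 1576, with 3032 under the DESeq2 Wald test, 4602 in a fit of the 2 groups alone, and 563 to 1867 when single libraries were left out. For pBIC against YC it was 3914 (1904 to 4376 without single libraries, lowest without YC 2) and for pBIC against BIC 3496 (1422 to 4134, lowest without BIC 1).

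Some differences changed sign. The log2 lambda to kappa difference in pBIC against BIC became 0.18 with Iglc1 alone over Igkc. The log2 light to heavy difference in pBIC against BIC became 0.21 per gene length, and that in pBIC against YC ran from -0.012 to 0.20 without single libraries, below 0 without pBIC 3. The light-chain constant share in BIC against YC ran from -0.111 to 0.0526 percentage points, above 0 without BIC 3. Of the single genes, Igkc in BIC against YC ran from -0.54 to 0.10 (turned without BIC 3), Iglc1 from -0.67 to 0.39 (turned without YC 1, 0.04, or BIC 3), Iglv3 from -0.0024 to 0.76 (turned without BIC 1), and Iglc1 in pBIC against BIC from -1.03 to 0.032 (turned without BIC 1). The causes were not tested.

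Replicate numbers are shared between groups in the sample titles. Over all tested genes, the deviations of same-numbered libraries from their group means had r from -0.09 to 0.15. Differently numbered libraries were not compared in this way, and whether a number stands for a shared batch was not tested. With the replicate block, 1725, 3144 and 2424 genes were called in the 3 comparisons, the Iglv1 share in pBIC against BIC changed from 15.3 to -1.95 percentage points, and 5 of the 21 tests on the 7 genes changed sides of the threshold. pBIC 4, 5 and 6 have no partner with their number, so blocked comparisons rest on pBIC 1 to 3 alone. Depth limits the V genes in pBIC most, down to 4 counts of Iglv2 in pBIC 6.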

Other observations

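Iglc4, a lambda constant gene between Iglc2 and Iglv1 that is not among the 7 and was picked after its values were seen, stood at 0.634, 0.417 and 0.830 CPM in YC, at 8.26, 6.76 and 1.42 CPM in BIC, and at 5.30, 1.67, 1.02, 0.850, 2.80 and 1.30 CPM in pBIC. All lymphoma libraries were above all YC libraries, by little in pBIC 4. Of all tested genes, 21.9% lay wholly above YC in BIC and 12.9% in pBIC. The YC values of Iglc4 rest on 19 to 30 counts.

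Joining segments of the lambda locus (Iglj1 and Iglj3) gave 2.48, 3.21 and 3.92 counts per 100 lambda constant counts in YC, 3.32, 2.90 and 1.75 in BIC, and 3.16, 7.02, 2.80, 8.35, 4.08 and 1.37 in pBIC. The values of pBIC 2 and pBIC 4 were the highest of the 12. Iglj2 lies inside a counted exon of Iglc2 and had 0 counts in every library, since reads over 2 genes were not assigned. The kappa joining segments gave 2.15 to 3.53 counts per 100 Igkc counts in YC, 3.21 to 3.596 in BIC and 3.45 to 5.57 in pBIC.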
